A study of Mus musculus with 3 samples.

Results

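Class-switched plasma cells of the mouse spleen were described in 3 single-cell RNA libraries, 213 cells of 35739 deposited cell barcodes. Spleens of wild-type mice had been ground into cell suspensions and profiled with 10x Genomics sequencing of poly(A) RNA, 1 library per group. The IR+HSO library came from mice irradiated at 8.5 Gy and given HSO, the IR library from mice irradiated at 8.5 Gy and given what the label calls a "colvent control", and the control library from mice that were not irradiated. HSO is hemp seed oil by the title of the series, which concerns protecting lymphocytes of the spleen from radiation. The labels used here give no strain, age, sex, time after irradiation, HSO dose or number of mice per library. A barcode was a member when it held at least 500 unique molecular identifiers (UMIs, 1 per captured RNA molecule) of at least 200 genes with under 10% mitochondrial UMIs, at least 5 UMIs of Jchain, at least 1 UMI of 2 or more of Sdc1, Tnfrsf17, Derl3, Prdm1 and Txndc5, and over 50% switched isotypes (Ighg1, Ighg2b, Ighg2c, Ighg3, Igha and Ighe) among its heavy chain constant UMIs. The rule found 98 cells in IR+HSO, 91 in IR and 24 in control. The same gate with 50% or fewer switched UMIs held 197, 236 and 38 IgM plasma cells in these libraries, the nearest relatives set beside the members here.

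Plasma cells are the end stage of the B cell lineage. They stop dividing, enlarge the endoplasmic reticulum and secrete antibody under the control of Prdm1 (Blimp-1), Irf4 and Xbp1. Class switching replaces the IgM constant region with IgG, IgA or IgE while the variable region, and with it the antigen specificity, is kept. The spleen holds short-lived plasmablasts, which still divide, and longer-lived resident plasma cells that depend on niche signals such as APRIL acting on the receptor encoded by Tnfrsf17. IgA, joined by the J chain encoded by Jchain, is the antibody of mucosal surfaces, and many IgA plasma cells carry the mucosal homing receptors Ccr9 and Ccr10.

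The switched share split the gated cells into separate groups. Of the members, 96 of 98 in IR+HSO, 90 of 91 in IR and 23 of 24 in control had over 90% switched UMIs. The members nearest to the limit had 59.6% in IR+HSO, 55.4% in IR and 84.4% in control, and the nearest cells outside it had 32.0% in IR+HSO, 49.0% in IR and 3.12% in control. Xbp1, the transcription factor of the secretory program, stood at 2304 CPM in the IR+HSO members, 2360 in IR and 2143 in control, against 43.3, 49.0 and 29.8 in T cells of the same libraries. Tnfrsf17, the receptor for APRIL, which the rule did use, stood at 327 in IR+HSO, 453 in IR and 334 in control, against 245 in IR+HSO, 278 in IR and 269 in control in the IgM plasma cells. T cells were barcodes with at least 3 UMIs of Cd3d, Cd3e and Cd3g, under 5 of Jchain and none of the 5 rule genes or of a set of B cell genes that includes Ms4a1, so those genes are at 0 in them by construction. CPM here are summed UMIs scaled to a total of 1000000 outside immunoglobulin genes, because antibody genes alone took 58.2% of the members' UMIs in IR+HSO, 61.8% in IR and 39.4% in control. The marker Ighg1 and the isotype gene Ighe led few or no members. Ighg1 was the leading isotype of 1 cell in each library, and Ighe of 0 of 98, 0 of 91 and 0 of 24 cells, which allows shares of up to 3.06%, 3.30% and 12.5%.

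The libraries differed in depth and in what surrounds the cells. Members had a median of 16048 UMIs in IR+HSO, 22297 in IR and 25537 in control, of which 6694, 8004 and 14998 lay outside immunoglobulin genes. With 1 library per group no comparison between libraries has a replicate, so no p-value is given for any of them and the 95% intervals cover counting error only. A ratio between libraries was taken where both libraries were expected to hold at least 10 UMIs under an equal rate, and a gene was counted where the ratio passed 2-fold. A gene can thus be measured through the counts of the library where it is high. RNA of other cell types was present in these barcodes. Of the members, 18 in IR+HSO, 20 in IR and 5 in control carried 20 or more UMIs of T cell, NK cell, myeloid or red cell markers, and pancreatic acinar markers, 18 genes, summed to 436 CPM in IR+HSO, 643 in IR and 2.63 in control. No doublet caller was run. No member barcode was a member in a second library, although the libraries shared 54 (IR+HSO and IR), 34 (IR+HSO and control) and 44 (IR and control) barcodes, and 2 member barcodes of the last pair were found in the other library.

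Class-switched plasma cells made up a larger share of the barcodes in the irradiated libraries. They were 0.926% of the 10585 filtered barcodes in IR+HSO (95% exact interval 0.752 to 1.13%), 0.708% of 12854 in IR (0.570 to 0.869%) and 0.265% of 9070 in control (0.170 to 0.393%). The log2 ratio of the shares was 1.42 for IR against control (0.76 to 2.13) and 0.39 for IR+HSO against IR (-0.04 to 0.81), which spans 0. Without cells of 2 or more other-lineage UMIs, which left 12 members in IR+HSO, 4 in IR and 3 in control, the log2 ratio for IR against control was -0.088 (-2.65 to 2.68) and that for IR+HSO against IR 1.87 (0.14 to 3.95). The irradiated libraries held few other B lineage cells, with 30 B cells in IR+HSO and 80 in IR by a gate on B cell markers, against 3604 in control. A share cannot tell more plasma cells from fewer other cells, and a larger share of a smaller spleen could be fewer cells in all. The split between switched and IgM plasma cells moved less. Switched cells were 33.2% of all gated plasma cells in IR+HSO (27.9 to 38.9%), 27.8% in IR (23.04 to 33.03%) and 38.7% in control (26.6 to 51.9%), and these intervals overlap.

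IgA cells led in both irradiated libraries. The constant gene with most UMIs was Igha in 77 of 98 cells in IR+HSO (78.6%, 95% exact interval 69.1 to 86.2%), in 68 of 91 in IR (74.7%, 64.5 to 83.3%) and in 11 of 24 in control (45.8%, 25.6 to 67.2%). IgG cells were 21 of 98 in IR+HSO, 23 of 91 in IR and 13 of 24 in control. Among them Ighg3 led 9, 8 and 2 cells, Ighg2b 5, 10 and 5, and Ighg2c 6, 4 and 5 in IR+HSO, IR and control. IR+HSO and IR have overlapping intervals for each isotype, while the IgA share of control lies below both, with an interval that overlaps that of IR. A cell's leading isotype was nearly its only one, with a median of over 99.9% of switched UMIs in each library, and 97 of 98 cells in IR+HSO, 90 of 91 in IR and 24 of 24 in control had over 95%. IgA cells held a median of 2257 Igha UMIs in IR+HSO, 2595.5 in IR and 2311 in control. Free RNA of this gene was also present, since T cells, which do not make it, averaged 1.07 Igha UMIs per cell in IR+HSO, 0.764 in IR and 0.120 in control. The members were chosen by these constant genes together with Jchain and the 5 rule genes, so the values of all of them are a description.

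**Figure D1:**
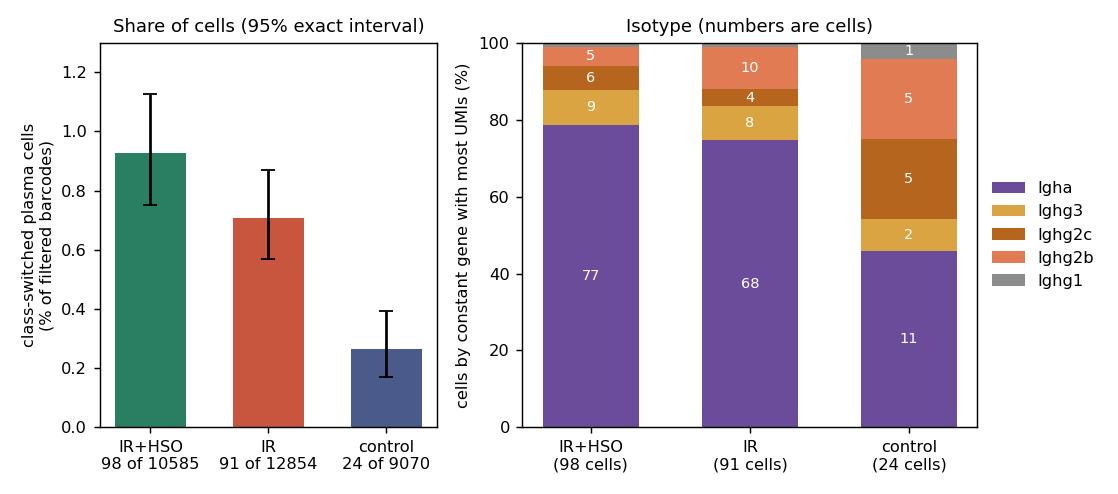
Left, class-switched plasma cells in percent of filtered barcodes (y axis) in the IR+HSO, IR and control libraries, with 95% exact intervals of the count as bars. Right, the percent of members (y axis) led by each switched constant gene. IgA cells (purple) are 77 of 98, 68 of 91 and 11 of 24.

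The antibody variable genes of single cells show how diverse the members were. A heavy and light chain pair was called in 84 of 98 cells in IR+HSO, 74 of 91 in IR and 19 of 24 in control, from at least 5 UMIs of variable genes with over 50% from 1 gene for each chain. IR+HSO held 67 different pairs, IR 72 and control 19. In IR+HSO 13 pairs recurred in at least 2 cells and covered 30 of the 84 cells (35.7%, 95% exact interval 25.6 to 46.9%). In IR 2 pairs recurred and covered 4 of 74 cells (5.41%, 1.49 to 13.3%), and in control none of 19 cells shared a pair (exact interval up to 17.6%). These intervals take cells as independent, but a cell counts only if another sampled cell has its pair, so they do not measure the error of these shares. Recurrence also depends on how many cells have a pair, so the shares of 84, 74 and 19 cells are not on a like basis. Among IgM plasma cells the irradiated libraries were alike in this, with 31.6% of cells in recurring pairs in IR+HSO, 32.5% in IR and 12.9% in control, and whether the gap differs between the kinds of cell was not tested. Of the 13 recurring pairs in IR+HSO, 11 had all their cells on 1 isotype. A shared pair is not proof of a shared clone, because the junctions were not read, and how many mice the library held is not given.

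The largest recurring pair, Ighv1-19 with Igkv6-23, was found in 5 cells of IR+HSO, all of them IgA. Their Ighv1-19 UMIs were 104, 60, 134, 50 and 74, which is 98.4 to 100% of the heavy variable UMIs of each cell. Their Igkv6-23 UMIs were 136, 107, 217, 113 and 61. The 5 cell barcodes differed from one another in at least 10 bases, so they are not 1 barcode read with errors. Ighv1-19 also led 3 cells in IR. The next pair, Ighv1-76 with Igkv4-55, held 3 cells, all IgA, and the other 11 held 2 cells each. The last 270 bases of the germline coding sequences of the first pair are shown because this pair held the most cells. They come from GENCODE M21 on GRCm38, Ighv1-19 from the minus strand at chr12:114708648-114708917 and Igkv6-23 from the minus strand at chr6:70260409-70260678, and the capitals mark the last cysteine codon, just before the third complementarity-determining region.
Ighv1-19: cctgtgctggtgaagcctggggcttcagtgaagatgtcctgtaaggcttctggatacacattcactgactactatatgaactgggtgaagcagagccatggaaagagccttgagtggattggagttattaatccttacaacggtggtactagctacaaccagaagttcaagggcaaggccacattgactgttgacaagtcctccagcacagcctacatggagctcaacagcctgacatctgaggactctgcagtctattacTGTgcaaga
Igkv6-23: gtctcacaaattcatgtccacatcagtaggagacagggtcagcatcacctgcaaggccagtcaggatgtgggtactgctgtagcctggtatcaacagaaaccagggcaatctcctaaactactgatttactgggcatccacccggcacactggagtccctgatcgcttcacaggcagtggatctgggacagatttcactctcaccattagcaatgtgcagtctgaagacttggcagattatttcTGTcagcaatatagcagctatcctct
Both are germline: the rearranged genes of the cells add a J segment, in heavy chains a D segment too, and may carry mutations, and gene counts do not read these. Libraries also shared pairs. IR+HSO and IR had 10 pairs in common, 14.9% of those of IR+HSO and 13.9% of those of IR, and each shared 1 pair with control. Lambda light chains were leading in 8 of 98 cells in IR+HSO, 11 of 91 in IR and 1 of 24 in control.

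IgA and IgG members differed in more than their constant region, in each library. Jchain, used by the rule, stood at 114879 CPM in IgA cells against 31004 in IgG cells of IR+HSO, at 141294 against 52927 in IR and at 93563 against 26564 in control. Ccr10, the receptor for the mucosal chemokine CCL28, had 193 CPM in IgA cells against 40.6 in IgG cells of IR+HSO, 270 against 31.2 in IR and 269.9 against 4.38 in control. IgA cells were thus higher in 3 of 3 libraries, 4.76-fold in IR+HSO (2.12 to 13.3), 8.67-fold in IR (3.88 to 24.02) and 61.7-fold in control (10.5 to 2494, from 1 UMI in IgG cells). Ccr9, the receptor for the gut chemokine CCL25, followed the same order, with 62.6 against 0 in IR+HSO, 84.9 against 20.8 in IR and 46.1 against 4.38 in control. Ly6c2, a surface protein of the Ly6 family, ran the other way, with 865 in IgA cells against 3180 in IgG cells of IR+HSO, 643 against 4531 in IR and 237 against 477 in control. The class II gene H2-Aa did so too, with 44.7 against 122 in IR+HSO, 30.9 against 130 in IR and 165 against 1401 in control. Single cells weighed on some of these sums. In IR+HSO, 1 IgA cell held most of the Ly6c2 UMIs of the IgA cells. In IR, 1 IgG cell held most of the H2-Aa UMIs of the IgG cells. Those values are therefore not typical of single cells of that isotype. Isotype shares differ between the libraries, so several comparisons below are also given in IgA cells alone.

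Dividing cells were a larger share of the control members than of the irradiated ones, and in control they were IgG cells. A cell was called cycling at 40 or more UMIs of 25 cell cycle genes per 10000 UMIs outside immunoglobulin genes, a limit set after the values were seen. Cycling members were 4 of 98 in IR+HSO (4.08%, 95% exact interval 1.12 to 10.1%), 3 of 91 in IR (3.30%, 0.685 to 9.33%) and 6 of 24 in control (25%, 9.77 to 46.7%). In control all 6 were IgG cells and none of the 11 IgA cells passed the limit. In IR+HSO 1 of the 4 was an IgG cell, and in IR 2 of the 3. In IR the limit cuts through close values, with 2 of the 3 cycling cells between 40 and 50 and 2 other cells between 30 and 40, and the third cycling cell had 421 UMIs outside immunoglobulin genes. No member of IR+HSO or control lay between 30 and 50. Median levels over cells were close, at 6.06 per 10000 in IR+HSO, 9.57 in IR and 10.1 in control, so the difference sits in the few high cells. IgM plasma cells had 8 of 197 cycling cells in IR+HSO, 11 of 236 in IR and 5 of 38 in control. In the control library cycling members had a median of 24482.5 UMIs outside immunoglobulin genes against 14228 in its other members.

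**Figure D2:**
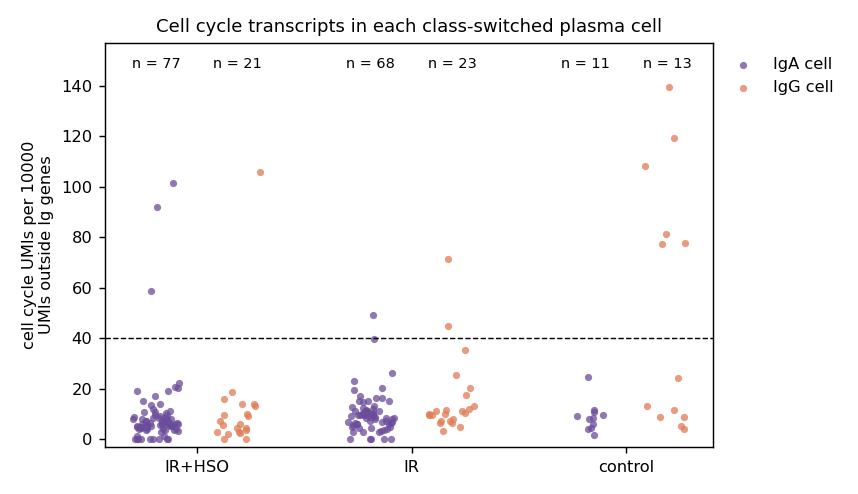
Each point is 1 class-switched plasma cell of the IR+HSO, IR or control library, placed by its UMIs of 25 cell cycle genes per 10000 UMIs outside immunoglobulin genes (y axis). Purple points are IgA cells and orange points IgG cells, and the dashed line is the limit of 40. The 6 control cells above it are all IgG cells.

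The comparison of IR with control addresses irradiation, but the IR label also names the "colvent control" and the control label does not, so irradiation and that agent cannot be told apart. Of 4528 genes measured, 540 (11.9%) passed 2-fold, 234 higher (5.17%) and 306 lower (6.76%) in IR. The median gene stood 0.13 lower on the log2 scale in IR, and with ratios centred on it 296 genes were higher and 211 lower. Scaled to all UMIs, antibody genes included, the median gene stood 0.80 lower and 54 genes were higher and 1248 lower, so directions here are relative to RNA outside antibody genes. Cell cycle genes were lower, 15 of the 17 measured of 25, with a median log2 ratio of -1.95. Mki67, the Ki-67 proliferation antigen, had 39.4 CPM in IR against 657 in control, and Top2a, the topoisomerase that untangles replicated DNA, 18.3 against 271. Cenpf, a kinetochore protein, had 1 UMI in IR against 60 in control, which is 112-fold lower with an interval of 19.4 to 4501. Birc5 (survivin) had 1 UMI against 40, and Hmmr 0 against 30, at least 18.7-fold lower. Cenpf, Birc5 and Hmmr were measured through their control counts, and the same can hold for genes among the 17, so that count and its median are a description. The replication-dependent histone genes H2ac24 and H2ac8 were 77.8-fold (39.0 to 182, from 8 UMIs in IR) and 26.3-fold (15.0 to 50.3) lower in IR. The size for H2ac24 was not shared by the other irradiated library, with 253 CPM in IR+HSO against 11.3 in IR and 876 in control. H3c3 was 87.8-fold lower, from 1 UMI in IR, with an interval of 15.0 to 3542. Cycling cells were called by the 25 cell cycle genes themselves, so leaving them out shrinks the cell cycle difference by construction. Without cycling cells 5 cell cycle genes were measured, with a median of 0.30, and among IgA cells 4, with a median of 0.35. These medians cover fewer genes than the 17 above. Mki67 was then at 37.9 in IR against 140 in control without cycling cells, and at 36.7 against 85.6 in IgA cells.

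The promoters of Ube2c and Top2a are shown for what cell cycle genes share in sequence, which the rule did not use. In the 300 bases from 250 before to 50 after the start, RefSeq on GRCm38.p6, the letters CCAAT on either strand occur in 18 of the 22 cell cycle genes with a promoter in the table, against 37.4% of all 32851 promoters, and TTTGAA on either strand in 8 of 22, against 17.9%. Ube2c, an enzyme that loads ubiquitin onto mitotic cyclins, had 4.24 CPM in IR+HSO, 5.63 in IR and 108 in control. Its promoter lies on the plus strand at chr2:164769679-164769978 and that of Top2a on the minus strand at chr11:99024140-99024439. Capitals mark CCAAT or ATTGG and TTTGAA or TTCAAA, and neighbouring matches may overlap.
Ube2c: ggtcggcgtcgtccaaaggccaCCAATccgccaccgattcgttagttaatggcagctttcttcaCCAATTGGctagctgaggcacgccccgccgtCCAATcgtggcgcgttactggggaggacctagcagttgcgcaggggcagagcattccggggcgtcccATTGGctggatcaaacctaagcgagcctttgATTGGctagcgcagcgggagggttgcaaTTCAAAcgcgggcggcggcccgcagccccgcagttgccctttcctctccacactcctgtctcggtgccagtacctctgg
Top2a: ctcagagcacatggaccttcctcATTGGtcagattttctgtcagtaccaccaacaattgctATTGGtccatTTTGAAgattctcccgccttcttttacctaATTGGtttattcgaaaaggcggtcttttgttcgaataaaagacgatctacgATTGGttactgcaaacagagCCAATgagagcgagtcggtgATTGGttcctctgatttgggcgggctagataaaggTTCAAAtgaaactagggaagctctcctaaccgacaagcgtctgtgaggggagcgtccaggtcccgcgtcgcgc
A match is a description of these letters, not of a bound factor.

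Several genes of the p53 pathway, which arrests or kills cells with damaged DNA, were higher in IR. Of 25 p53 targets 15 were measured, 5 were over 2-fold higher and 1 lower, with a median log2 ratio of 0.57, and in IgA cells alone 2 of 7 were higher and 0 lower. Without members of 2 or more other-lineage UMIs, which left 4 cells in IR and 3 in control, 3 targets were measured, with a median of -0.40 and none past 2-fold. Cdkn1a, the cell cycle inhibitor p21, had 107 UMIs over 37 of 91 cells in IR and 0 UMIs over 24 cells in control, at least 19.1-fold higher by a floor of 3 UMIs per library. Phlda3, a p53-induced inhibitor of Akt, had 42 UMIs in IR against 1 in control (22.5-fold, 3.82 to 909). Ccng1, cyclin G1, had 160 CPM in IR against 60.5 in control (2.65-fold, 1.68 to 4.35). Pmaip1 (Noxa), also on the list, was the 1 lower gene, with 15 UMIs in IR against 21 in control (2.62-fold lower, 1.29 to 5.45). Cdkn1a was not particular to these cells, since IgM plasma cells had 109 CPM in IR against 6.66 in control and T cells 211 against 1.05. After thinning every cell to 2000 UMIs outside immunoglobulin genes, Cdkn1a was seen in 10.0% of 80 cells in IR+HSO, 23.1% of 78 in IR and 0 of 23 in control.

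Survival genes were higher in IR for 2 of 11 measured and lower for 1, with a median of 0.10. Bcl2, which blocks mitochondrial apoptosis, had 353 CPM in IR against 39.4 in control (8.96-fold, 5.33 to 16.2), while IgM plasma cells had 388 against 178. T cells carried more Bcl2 than the members in each library, with 1236 in IR against 243 in control. Without the members that held 20 or more UMIs of other lineages, Bcl2 was 242 in IR against 24.7 in control. Prg2, which encodes the major basic protein also found in eosinophil granules, had 902 CPM in IR against 86.8 in control (10.4-fold, 7.33 to 15.2), and 1 cell held 39.4% of the 33 control UMIs. After thinning it was seen in 62.5% of cells in IR+HSO, 64.1% in IR and 21.7% in control. It was present in IgM plasma cells at 1105 in IR and 953 in control and was at 1.65 and 0.419 in T cells, so in control it was low in the switched cells and not in the IgM cells. Within IgA cells Prg2 was 863 in IR against 151 in control. Serpina3f, a serine protease inhibitor gene, had 168 UMIs in IR against 0 in control, at least 29.97-fold higher, and 1 IR cell held 36.3% of them. Mt1, a metal-binding metallothionein, was 10.5-fold higher (5.73 to 21.3), Lgals3bp, a secreted galectin ligand, 9.79-fold (5.21 to 20.8) and Cd274, the checkpoint ligand PD-L1, 4.60-fold (1.83 to 14.9). The endoplasmic reticulum folding and secretion list had a median of -0.48 over all 28 genes, with 4 lower and 0 higher in IR, and -0.69 with 11 lower in IgA cells alone. Ssr2, a translocon-associated protein, had 291 CPM in IR against 878 in control, and Pdia3, a disulfide isomerase, 494 against 1028. The plasma cell identity list had a median of -0.01 over 18 genes, with Ly6k higher and Eaf2 lower. Interferon response genes were higher for 3 of 11 and lower for 0, among them Zbp1, a nucleic acid sensor, with 193 against 84.1. Immediate-early and stress genes were higher for 4 of 19 and lower for 3, with Fos at 1561 in IR against 757 in control and the chaperone Hsp90aa1 at 319 against 678. Unfolded protein response genes passed 2-fold for 0 of 15, glycolysis genes lower for 2 of 12 and oxidative phosphorylation genes lower for 1 of 25.

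Class II antigen presentation genes, which B cells express and plasma cells shut down, were lower in IR for 6 of 8 measured, with a median of -2.003. H2-Aa had 57.7 CPM in IR against 907 in control (15.7-fold lower, 11.4 to 22.3), and H2-Eb1 156 against 736. Cd74, the invariant chain, did not share this, with 5260 in IR against 5238 in control, and Ctss, the protease that cleaves it, was 2.64-fold higher. In IgA cells alone 2 of 4 measured were lower and 1 higher, with a median of -0.48, and H2-Aa was 30.9 in IR against 165 in control. B cell markers moved with these genes, with Ms4a1 (CD20) at 36.6 in IR against 145 in control, and their part in the result was not tested. In T cells of these libraries H2-Aa read 18.3 in IR against 138 in control. Markers of T cells were higher in IR for 3 of 10 measured and lower for 0, with Cd3d at 142 against 60.5. Markers of NK cells were higher for 3 of 9 and lower for 1, with Gzmb at 71.8 against 10.5 and Prf1 at 25.3 against 68.4, and without the members holding 20 or more other-lineage UMIs Gzmb was 21.4 in IR against 0 in control.

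**Figure D3:**
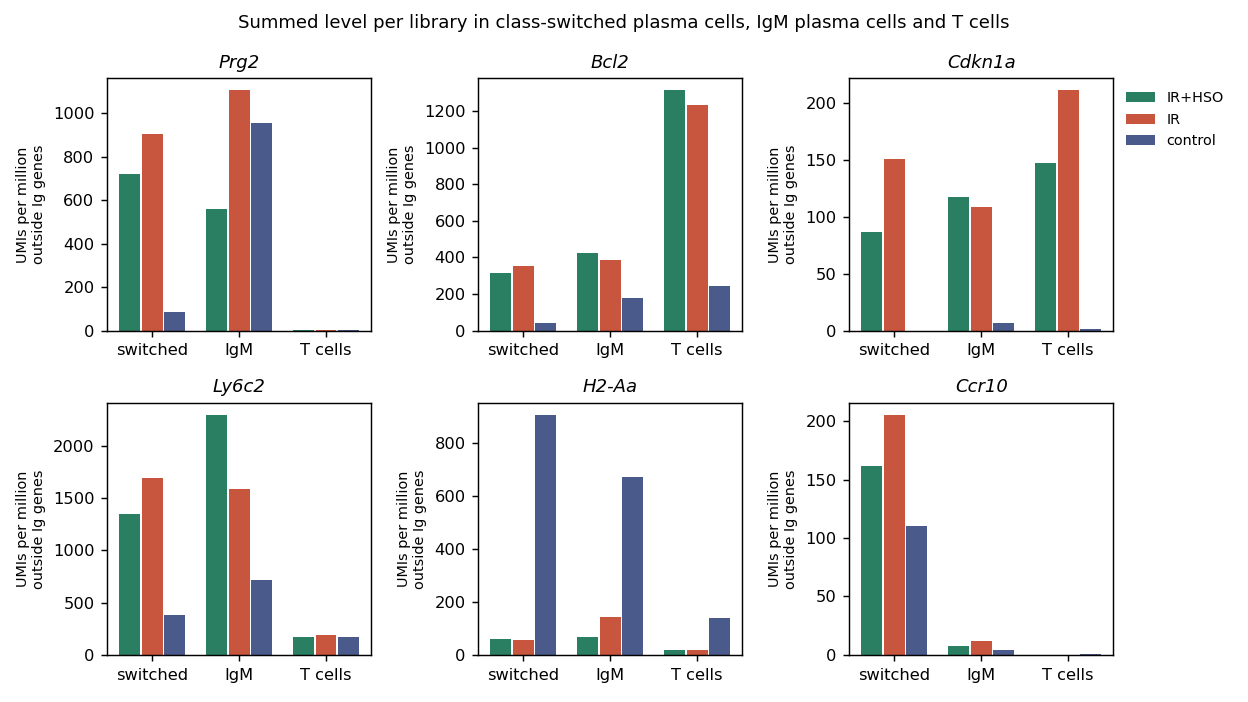
CPM outside immunoglobulin genes, from summed UMIs (y axis) of Prg2, Bcl2, Cdkn1a, Ly6c2, H2-Aa and Ccr10 in class-switched plasma cells, IgM plasma cells and T cells (x axis) of the IR+HSO, IR and control libraries. Prg2 is 721, 902 and 86.8 in the switched cells, H2-Aa is highest in control at 907, and Ccr10 is near 0 outside the switched cells.

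The comparison of IR+HSO with IR addresses the oil in irradiated mice, and the labels do not say whether the oil came before or after irradiation. Of 6387 genes measured, 446 (6.98%) passed 2-fold, 232 higher (3.63%) and 214 lower (3.35%) in IR+HSO. Scaled to all UMIs 298 were higher and 145 lower. p53 targets had 0 of 18 past 2-fold and a median of -0.15, class II genes 0 of 7 and 0.08, and the folding list 1 of 28 and -0.04, against a median of -0.04 for all genes. Cell cycle genes were lower for 2 of 14 and higher for 0, with a median of -0.43. Cdkn1a had 86.3 CPM in IR+HSO against 151 in IR, Bcl2 317 against 353, Prg2 721 against 902, Mt1 520 against 303 and H2-Aa 60.8 against 57.7, none of them past 2-fold. Immediate-early and stress genes, which cells induce within minutes of a signal, were lower in IR+HSO for 5 of 20 measured, with a median of -0.63. Hspa1a, the inducible HSP70, had 25.5 CPM in IR+HSO against 103 in IR (4.04-fold lower, 2.38 to 7.18), Egr1 84.9 against 180 and Dusp1 100.4 against 211. T cells had 75.7 of Hspa1a in IR+HSO against 178 in IR. Summed over the 24 genes of the list, members had 8501 CPM in IR+HSO against 11124 in IR. IgM plasma cells had 11355 against 18289, T cells 6692 against 9975 and B cells 5245 against 9049. The lower level of this list was thus not particular to the members. Niche and survival receptor genes were higher in IR+HSO for 1 of 22 measured and lower for 1, with a median of 0.09. The higher gene was Il6ra, the receptor of a plasma cell survival cytokine, with 29 UMIs in IR+HSO against 9 in IR (3.24-fold, 1.49 to 7.78). The lower gene was Cxcr3, with 7 UMIs in IR+HSO against 15 in IR (2.13-fold lower, 0.818 to 6.18).

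Some of the differences between the irradiated libraries were also seen in T cells. Mir6236 had 1261 CPM in IR+HSO against 162 in IR (7.80-fold, 6.41 to 9.55), and T cells 1628 against 222. Gm10076 had 2664 against 484 in the members and 1498 against 314 in T cells. H2ac24 was 22.5-fold higher in IR+HSO, with 179 UMIs against 8, and 1 cell held 43.0% of the 179, while T cells had 177 CPM of it in IR+HSO against 46.6 in IR. NK cell markers were higher in IR+HSO for 1 of 11 and lower for 1, with Prf1 at 50.9 against 25.3 and Nkg7 at 106 against 231, and T cell markers were lower for 2 of 11. Xcl1 and Cd160, also genes of NK and CD8 T cells, were lower in IR+HSO at 11.3 against 80.2 and 7.07 against 43.6, and without members of 20 or more other-lineage UMIs Xcl1 was 4.21 in IR+HSO against 14.98 in IR. Cxcl10, an interferon-induced chemokine, had 9 UMIs in IR+HSO against 55 in IR (6.08-fold lower, 2.98 to 14.00). C1qb, a macrophage gene, had 24 UMIs in IR+HSO against 1 in IR, and 1 cell held 50% of them. Genes with near-identical copies, such as Gm10076 and the H2ac genes, may share reads with them.

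IR+HSO against control gave values beside those of IR against control, with which it shares the control cells. Of 4505 genes measured, 629 (14.0%) passed 2-fold, 235 higher (5.22%) and 394 lower (8.75%) in IR+HSO, and after centring on the median gene, which lay 0.17 lower, 334 were higher and 255 lower. Scaled to all UMIs 71 were higher and 1136 lower. Cell cycle genes were lower for 15 of 16 measured, class II genes for 5 of 7 and folding genes for 5 of 28. p53 targets were higher for 5 of 15 and lower for 1. Cdkn1a had 61 UMIs in IR+HSO against 0 in control, at least 10.9-fold higher. Bcl2 was 8.03-fold higher (4.77 to 14.6), Prg2 8.31-fold (5.84 to 12.2), Mt1 18.0-fold (9.94 to 36.4) and Mt2 15.96-fold (5.29 to 78.8, from 3 UMIs in control). Unfolded protein response genes were higher for 1 of 15 measured and lower for 0, with a median of 0.03. Plasma cell identity genes were higher for 3 of 20 and lower for 1, with a median of 0.08. Herpud1, a gene of the unfolded protein response, had 1547 CPM in IR+HSO against 670 in control, and Pou2af1, the B lineage coactivator OBF-1, 854 against 373. Fatty acid and sterol genes were higher for 1 of 9 measured and lower for 1, with a median of -0.45. The lower gene was Srebf2, with 34 UMIs in IR+HSO against 37 in control (2.02-fold lower, 1.24 to 3.32). The higher gene was Fads2, the delta-6 desaturase of polyunsaturated fatty acids, with 30 UMIs in IR+HSO against 4 in control (4.03-fold, 1.42 to 15.8). IR members had 17 UMIs of Fads2, or 23.9 CPM against 42.4 in IR+HSO.

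**Figure D4:**
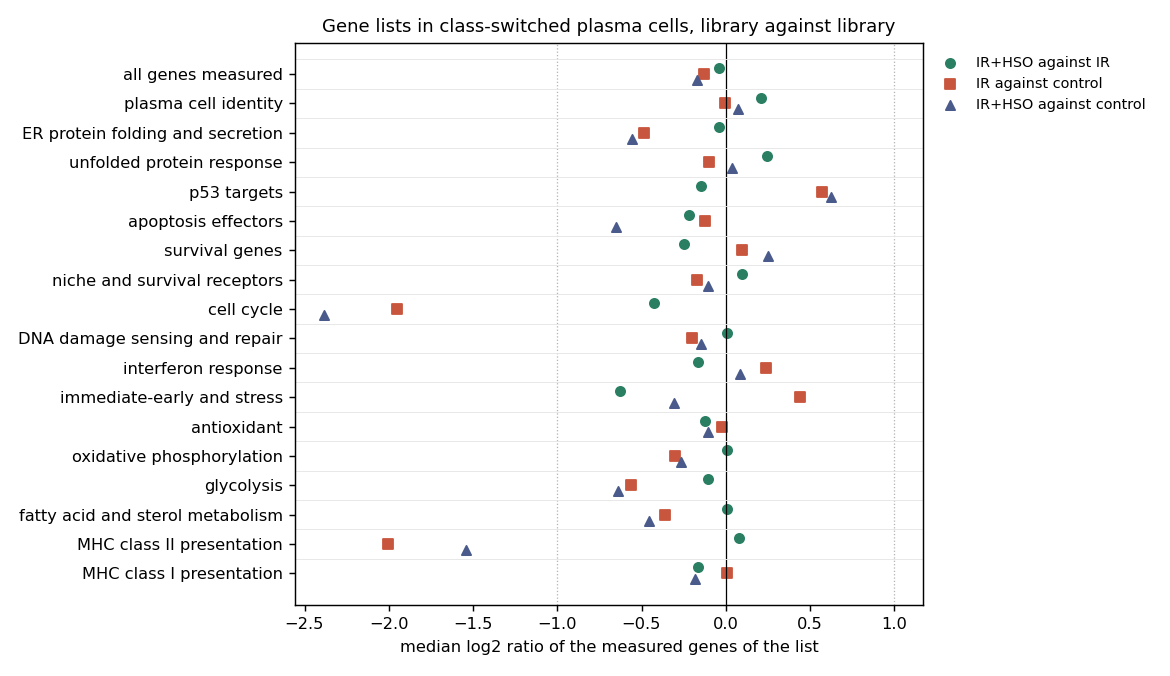
Median log2 ratio (x axis) of the measured genes of each list (rows) in class-switched plasma cells, for IR+HSO against IR, IR against control and IR+HSO against control. Genes with 0 UMIs in 1 library enter at their bound, and dotted lines mark 2-fold. Cell cycle and class II genes lie near or below -1.5 in both comparisons with control.

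Class-switched and IgM plasma cells could be tested, because each library holds both. The UMIs of each kind were summed per library, and the 6 sums were compared with edgeR's quasi-likelihood test with library as a block, leaving out immunoglobulin genes and the genes of the rule. Of 7514 genes tested, 241 (3.21%) passed an adjusted p of 0.05, 124 higher (1.65%) and 117 lower (1.56%) in switched cells. Of 23 tested niche and survival receptor genes 3 were higher and 2 lower, with a median of -0.13. Ccr10 had 161 CPM in switched cells against 7.70 in IgM cells of IR+HSO, 205 against 12.3 in IR and 110 against 4.44 in control, a log2 fold change of 4.28 (SE 0.22, edgeR adjusted p = 3.2e-09). Every switched value lay above every IgM value. The switched sums pool IgA and IgG cells, and the test was not run on IgA cells alone. Both Ccr10 and Ccr9 were lower in IgG than in IgA cells of each library, as given above. In control, Ccr10 in IgG cells did not exceed its level in IgM cells. Ccr9 had 49.5 against 6.73 in IR+HSO, 67.5 against 6.14 in IR and 21.03 against 39.97 in control, where 1 IgM cell held 72.2% of the UMIs, with a log2 fold change of 2.12 and an edgeR adjusted p of 0.024. Itgb7, the integrin chain that binds gut endothelium with alpha 4, rose by a log2 fold of 1.04 (adjusted p = 0.015, higher in 3 of 3 libraries). Cxcr4, the receptor that holds plasma cells in bone marrow, fell by 0.77 (adjusted p = 0.037), and Igf1r by 1.20 (adjusted p = 0.018).

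Of 20 tested genes on the fatty acid and sterol list 1 was higher and 0 lower. Fads2, also among the 10 largest rises, had 42.4 CPM in switched cells against 3.85 in IgM cells of IR+HSO, 23.9 against 1.37 in IR and 10.5 against 2.22 in control (log2 fold change 3.55, SE 0.51, edgeR adjusted p = 5.0e-04). Fads3, a related gene, rose by 2.86 (edgeR adjusted p = 0.033, and 0.060 at a Jchain minimum of 10 UMIs). Cpne2, a calcium-dependent membrane binder, rose by 3.67, with 53.7 against 3.85 in IR+HSO and 54.9 against 4.78 in IR, and had 0 UMIs in both kinds of control cell. Enah, an actin regulator, Arfgef3, Plcd3, a phospholipase C, and Sorcs2, a sortilin-type receptor, rose by 3.15, 2.55, 2.28 and 2.20, and 1700003M07Rik and AA467197 by 3.39 and 2.68. In control, 1700003M07Rik too had 0 UMIs in both kinds of cell, and Enah had 7.89 CPM in switched cells against 6.66 in IgM cells. Without cells of 20 or more other-lineage UMIs the edgeR adjusted p of Enah was 0.063. Of 28 folding and secretion genes 8 were higher and 0 lower, with a median of 0.26 against -0.01 for all genes. Hsp90b1, the chaperone GRP94, had 6655 CPM in switched cells against 3215 in IgM cells of IR+HSO, 5762 against 4191 in IR and 9836 against 7352 in control, and Sec11c, a signal peptidase subunit, rose by 0.66. Xbp1 rose by 0.46, and Edem1 and Edem2, which help to clear misfolded proteins, by 0.74 and 0.90. Oxidative phosphorylation had 5 of 25 higher, among them Ndufa4 by 0.77.

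Immediate-early and stress genes were lower in switched cells for 8 of 22 tested and higher for 0, and cytokines of plasma cells were lower for 2 of 5, with a median of 0.0080. Hspb1, the small heat shock protein HSP27, had 2.83 CPM in switched cells against 32.7 in IgM cells of IR+HSO, 7.04 against 67.6 in IR and 2.63 against 159.9 in control (log2 fold change -3.93, SE 0.37, edgeR adjusted p = 6.1e-06). Il10, the cytokine of regulatory plasma cells, had 18.4 against 105 in IR+HSO, 8.44 against 44.4 in IR and 0 against 26.6 in control (log2 fold change -2.52, adjusted p = 1.3e-04). Lag3, an inhibitory receptor that marks IL-10-producing plasma cells, fell by 3.01 (adjusted p = 0.0015) and Il5ra, the IL-5 receptor chain, by 2.97 (adjusted p = 2.7e-05). Ggh, a folate-processing hydrolase, fell by 2.49 in 3 of 3 libraries, and Nrp2, Sema6d and Phlda1 by 3.48, 2.43 and 2.27, Phlda1 being lower in 2 of 3 libraries and at an edgeR adjusted p of 0.078 without cells of 20 or more other-lineage UMIs. The unnamed genes Gm47230 and 1810041H14Rik fell by 2.94 and 2.66. Egr1, an immediate-early transcription factor, had 84.9 against 356 in IR+HSO, 180 against 599 in IR and 52.6 against 358 in control (log2 fold change -1.97, adjusted p = 1.0e-06). Cell cycle genes were lower for 4 of 25, with Mki67 by 1.18 and Ube2c by 1.63. Of 14 tested apoptosis genes 1 was higher and 1 lower, with Fas, the death receptor, higher by 1.54 and Bcl2l11 (Bim) lower by 0.82, and Bst2 (tetherin), which restrains viral budding, rose by 1.28. Class I presentation was lower for 3 of 13, with B2m by 0.32. The 2 called B cell markers, Ms4a1 and Cd37, were lower too, and their part in these differences was not tested. Without the library block 2 genes were called, and DESeq2 called 67. Without the control library edgeR called 481, without IR+HSO 159, and without cells of 20 or more other-lineage UMIs 182. Whether the 3 libraries differed in these contrasts was not tested, and 6 sums with 24 control cells limit the precision.

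**Figure D5:**
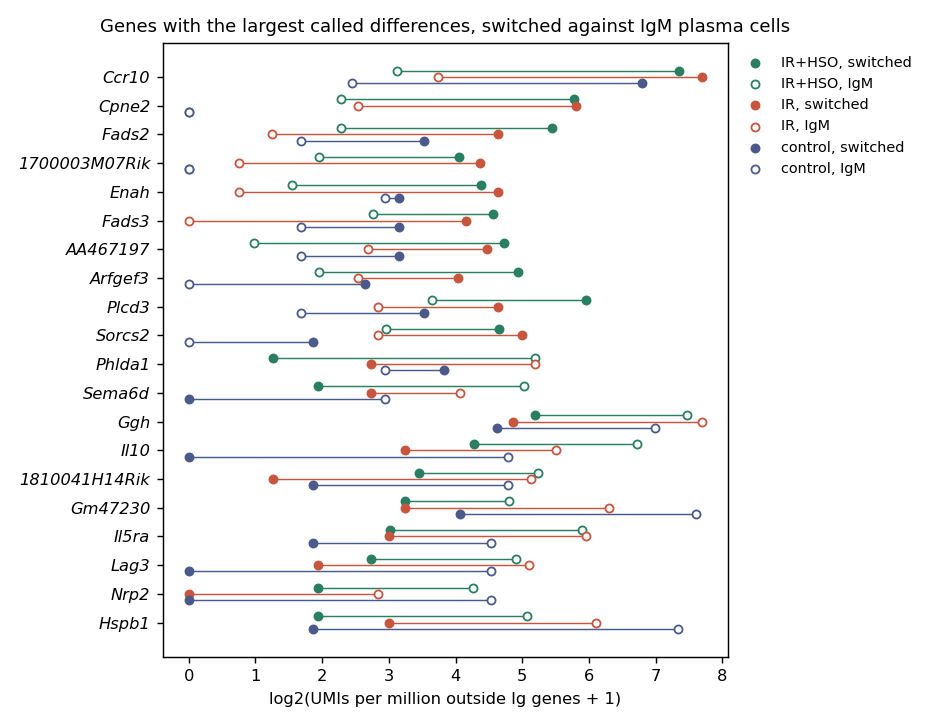
Levels of the 10 genes with the largest called rise and the 10 with the largest called fall (rows) as log2 of CPM outside immunoglobulin genes plus 1 (x axis). Filled points are class-switched and open points IgM plasma cells of the IR+HSO, IR and control libraries, joined per library. Ccr10 is higher and Hspb1 lower in switched cells of all 3 libraries.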

How the data were processed

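Deposited values were raw UMI counts for each gene in each barcode. The file headers name Cell Ranger 7.0.1 as the software the authors used, and the genome build was GRCm39 per the submitters' processing notes. The annotation release is not given in the sources used here. The 3 libraries held 45636807 UMIs in IR+HSO, 50836313 in IR and 47298108 in control over 56980 genes. Gene names came from the files. Members, gene lists and tests were chosen with earlier results of these data known.

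UMIs of members were summed per library and scaled to UMIs outside 393 immunoglobulin genes. Ratios carry exact conditional 95% intervals, and shares exact Clopper-Pearson intervals. Genes were named by a rule: per comparison up to 3 genes of each list past 2-fold, by summed UMIs, and the 8 highest and 8 lowest genes outside antibody, T cell receptor, mitochondrial, ribosomal and other-cell genes, ranked by the end of the interval nearest to 1, and in the edgeR test the 10 largest called changes in each direction. The text prints part of the genes so named. Others, such as Cd74, Xbp1, Itgb7 and Bst2, were added after their values were seen. For switched against IgM cells edgeR 4.0.16 was run with TMM factors and filterByExpr, and p-values were adjusted by Benjamini-Hochberg. In simulated counts of that comparison with 7429 genes, it called 68 of 98 genes changed 2-fold, 99 of 100 changed 4-fold and 7 of 7231 unchanged ones. Apart from the set changes, each gene was drawn at 1 rate in all libraries and all genes with 1 dispersion. The simulation therefore gives no error rate for the calls in the data. For IR against control, 196 of 199 measured genes drawn with a 4-fold change passed 2-fold, as did 85 of 4104 unchanged ones. Those draws held counting error only, without variation between cells or libraries, so they give no error rate for the 2-fold counts of the data. Samples were mapped to groups by their treatment labels. Sequences came from GENCODE and RefSeq tables of GRCm38, another build than the files', so no position in the files was used. Among 25 cell cycle genes 22 matched a promoter. Each library holds both kinds of plasma cell, so library pairs the sums. UMI counts limit the precision, and 18, 13 and 1 members in IR+HSO, IR and control were too shallow for thinning.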

Additional observations from a re-analysis of the deposited data

Results flagged for a closer look

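Barcodes with 10% or more mitochondrial UMIs lie outside the cell filter. Among them 3 in IR+HSO, of 2102, and 1 in IR, of 643, met every other part of the rule for class-switched plasma cells, and 0 of 357 did so in control.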

How the results depend on the processing

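No paired analysis was possible between libraries because each group is 1 library. For class-switched against IgM cells, no replicate block left 1 gene higher and 1 lower, DESeq2 gave 37 and 30, and no filter gave 196 lower. Leaving out 1 library gave 65 to 248 higher and 94 to 233 lower. Removing cells with 20 or more other-lineage UMIs gave 73 higher, and with 2 or more 2 higher and 3 lower. That last choice left 12, 4 and 3 members in IR+HSO, IR and control. Under it the log2 share ratio was -0.088 for IR against control, a reversal, and 1.87 for IR+HSO against IR, and switched cells were 20.3% of plasma cells in IR+HSO and 13.8% in IR. Genes higher and lower were then 35 and 29 for IR against control, 23 and 11 for IR+HSO against IR, and 59 and 48 for IR+HSO against control. In the same order, at least 5 expected UMIs gave 549 and 628, 532 and 432, and 575 and 726, and no filter gave 1136 and 1235, 1045 and 743, and 1206 and 1331. Scaled to all UMIs, IR against control had 54 and 1248 and IR+HSO against control 71 and 1136. Igha cells alone gave 97 and 70, and 112 and 111. Without cycling cells 129 and 196 were lower, and centring left 255 lower in IR+HSO against control. Each cell counted equally gave 360 and 500 for IR+HSO against IR.

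Log2 ratios that reversed for IR against control were, with 2 or more other-lineage UMIs removed, class II 1.99 (1 gene), Hmgb2 0.81 and Tubb5 1.62, and the p53 targets, whose median was 0.57, were at -0.40 (3 genes). Small medians turned too, such as the unfolded protein response at 0.46. Without cycling cells they were cell cycle 0.30, Hmgb2 0.41, Tubb5 0.54 and Hsp90aa1 0.061, and in Igha cells cell cycle 0.35, Hmgb2 0.53, Tubb5 0.46, Hsp90aa1 0.062, H2ax 0.23 and T cell markers -0.070. At 5 expected UMIs cytokines were -0.37 and stroma 0.088. For IR+HSO against IR, Egr1 was 0.96 with 2 or more removed, and Lef1 0.39 and Ccr2 3.43 with 20 or more removed. For IR+HSO against control, p53 targets were -0.54, class II 1.27 and dendritic markers -1.06 with 2 or more removed. Hmgb2 was 0.17 and Eno1 0.0094 without cycling cells, and in Igha cells Hmgb2 was 0.29, Eno1 0.66, cell cycle 0.29 and H2ax 0.12. Beyond fewer cells or genes, the cause was not tested. Of 1910 values for named genes between libraries 1525 held, and of 201 in the edgeR test 192 held. The other 9 lost their call, namely Fads3 at 10 Jchain UMIs, Enah and Phlda1 without cells of 20 or more other-lineage UMIs, and Hspb1, Lag3, Il5ra, Gm47230, 1810041H14Rik and Il10 without the block. A named gene that a setting did not test, or gave no adjusted p, has no value and counts as neither held nor lost. DESeq2 gave values for 3 of the 20 named genes and the test without the block for 8. Leaving out IR gave values for 9 and leaving out IR+HSO for 8. Of the 10 named rises only Ccr10 had a value in these settings. The 24 control cells limit every comparison with control.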
